A study of Mus musculus with 3 samples.

Results

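The genes described here are 50 that act in mitosis, at the kinetochore and in cytokinesis, listed by name and role. The list was drawn up with earlier results of these data known, so its counts are not independent of these arrays. Of the 50, 49 had a probe set that carried a single gene symbol, and these 49 were described among 19938 genes measured that way. Ccnb1, which encodes cyclin B1, had no such probe set and has no value. Gene expression was measured in total RNA of kidney, on Affymetrix Mouse Gene 1.0 ST arrays; the mice were female CBL/6, 8 to 10 weeks old. One array held kidney RNA of control mice that were not treated. The NTS array held kidney RNA of mice given 1 injection of sheep nephrotoxic serum (NTS), an antiserum against the glomerulus, at a dose of 13.5 ug/g. The NTS/PGE2 array held kidney RNA of mice that also received prostaglandin E2 (PGE2), a lipid signal, at 5 ug/g each day from day 2 after that injection. The treated mice were killed on day 7. The labels do not give a vehicle for the control or NTS mice, nor the number of animals behind an array. With 1 array per group no difference has a replicate check, so no test was run and no p-value or replicate error is given.

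A cell that enters mitosis activates the kinase CDK1 through cyclins A and B. Its condensed chromosomes attach to spindle microtubules through kinetochores, large protein assemblies built on centromeric chromatin. The spindle checkpoint holds the anaphase-promoting complex (APC/C) inactive until all kinetochores are attached, after which securin and cyclin B are degraded, sister chromatids part and the cell divides by cytokinesis. Most of these genes are transcribed in the G2 and M phases and are silent in resting cells. Kidney tubule cells divide rarely in the healthy adult and re-enter the cycle after injury. In RNA of a whole kidney, more dividing cells and more RNA per dividing cell cannot be told apart.

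Values are log2 RMA values, in which a difference of 1 is 2-fold. The median over all probe sets was 7.11 in control, 7.11 in NTS and 7.14 in NTS/PGE2, and the 25th percentile lay between 5.77 and 5.79. All 10 measured markers of the proximal tubule, the main tissue of the renal cortex, lay at or above the median on every array. The only measure of technical spread came from 460 bright genes with 2 probe sets. The SD of 1 probe set's difference there was 0.20 in the comparison of NTS with control, 0.21 in that of NTS/PGE2 with NTS and 0.12 in that of NTS/PGE2 with control, and it leaves out the spread between animals. Probe sets with exactly equal values on all arrays made up 29.1% of genes, so equal values do not show that a gene was unchanged.

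Many promoters of this class carry CCAAT boxes, which bind the factor NF-Y, and a cell cycle genes homology region (CHR), which binds the MuvB complexes that repress these genes in resting cells and activate them before mitosis. The stretches below run from 100 bases before to 50 bases after the annotated transcription start, 5′ to 3′ on the strand of the gene, from RefSeq on build GRCm38.p6. Capitals mark CCAAT or its reverse complement ATTGG and the CHR letters TTTGAA (reverse complement TTCAAA) or TTTAAA. Shown are Ccnb2 and Cdk1 and then, for each other role, the gene with the largest difference between the NTS and control arrays that had a single promoter in the table. Spc25 and Pttg1 follow because their values were equal on all arrays.
Ccnb2, chr9:70421505-70421654, minus strand: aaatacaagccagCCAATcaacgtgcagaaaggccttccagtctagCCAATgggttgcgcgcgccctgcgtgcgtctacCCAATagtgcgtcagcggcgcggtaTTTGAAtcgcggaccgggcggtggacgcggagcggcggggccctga
Cdk1, chr10:69352863-69353012, minus strand: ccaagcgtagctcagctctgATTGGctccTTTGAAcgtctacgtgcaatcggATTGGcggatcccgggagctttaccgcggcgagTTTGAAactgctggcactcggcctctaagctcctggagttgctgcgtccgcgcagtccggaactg
Nek2, chr1:191821373-191821522, plus strand: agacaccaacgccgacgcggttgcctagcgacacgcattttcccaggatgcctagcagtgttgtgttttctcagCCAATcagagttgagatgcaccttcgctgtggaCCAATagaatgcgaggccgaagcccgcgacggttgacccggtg
Birc5, chr11:117849137-117849286, plus strand: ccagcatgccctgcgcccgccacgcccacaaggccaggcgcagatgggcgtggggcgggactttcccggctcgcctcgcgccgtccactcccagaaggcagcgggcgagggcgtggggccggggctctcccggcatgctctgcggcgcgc
Bub1, chr2:127831810-127831959, minus strand: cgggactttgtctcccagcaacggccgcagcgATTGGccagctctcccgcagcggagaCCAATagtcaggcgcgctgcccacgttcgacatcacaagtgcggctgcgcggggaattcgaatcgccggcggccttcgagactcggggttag
Cenpe, chr3:135212463-135212612, plus strand: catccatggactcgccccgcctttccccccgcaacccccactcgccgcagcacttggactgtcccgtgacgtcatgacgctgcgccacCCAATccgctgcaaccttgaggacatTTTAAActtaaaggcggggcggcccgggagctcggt
Nusap1, chr2:119618198-119618347, plus strand: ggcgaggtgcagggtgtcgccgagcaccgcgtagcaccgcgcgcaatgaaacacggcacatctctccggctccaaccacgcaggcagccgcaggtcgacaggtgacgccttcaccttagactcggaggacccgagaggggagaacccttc
Kif23, chr9:61946750-61946899, minus strand: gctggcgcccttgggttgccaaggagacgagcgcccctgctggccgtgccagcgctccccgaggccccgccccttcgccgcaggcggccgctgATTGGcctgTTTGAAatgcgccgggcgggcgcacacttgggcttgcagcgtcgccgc
Mki67, chr7:135716330-135716479, minus strand: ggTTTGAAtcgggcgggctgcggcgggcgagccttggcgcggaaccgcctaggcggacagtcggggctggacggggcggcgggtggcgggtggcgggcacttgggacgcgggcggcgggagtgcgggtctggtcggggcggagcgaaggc
Cdca3, chr6:124830076-124830225, plus strand: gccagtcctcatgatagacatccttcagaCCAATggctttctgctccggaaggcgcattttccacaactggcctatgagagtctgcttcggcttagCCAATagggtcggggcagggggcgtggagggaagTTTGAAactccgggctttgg
Spc25, chr2:69206164-69206313, minus strand: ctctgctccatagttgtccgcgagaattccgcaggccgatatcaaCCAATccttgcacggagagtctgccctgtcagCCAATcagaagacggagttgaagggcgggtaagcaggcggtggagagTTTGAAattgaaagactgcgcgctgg
Pttg1, chr11:43425932-43426081, minus strand: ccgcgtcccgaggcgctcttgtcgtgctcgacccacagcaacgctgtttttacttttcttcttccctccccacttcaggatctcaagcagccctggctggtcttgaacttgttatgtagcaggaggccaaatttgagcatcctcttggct

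The promoters of 41 of the 50 genes were in the table, as 45 entries of 250 bases before to 50 after the start. More than 1 entry was given for 3 genes, and those of Ect2 and of Prc1 overlap, so the counts below hold some matches more than once. CCAAT stood on either strand in 36 of the 45 (80.0%), against 37.4% of all 32851 promoters of that length. TTTGAA was found in 32 (71.1%, against 17.9%) and TTTAAA, which reads the same on both strands, in 9 (20.0%, against 13.2%). CCAAT together with TTTGAA or TTTAAA was present in 30 (66.7%), against 10.7% of all promoters. Matches of different motifs overlapped each other in 1 of the 45. In 31 of the 35 promoters with TTTGAA or TTTAAA, the match nearest to the start lay within 50 bases of it, where 30.9% of such promoters did in the whole table. At least 2 copies of CCAAT stood in 23 of the 45 (51.1%), against 11.7% overall. These are matches of letters, not measured binding sites. The 27 measured genes with CCAAT and TTTGAA or TTTAAA had a median difference between the NTS and control arrays of 1.39, with 19 at least 2-fold higher, and the 13 without the pair had 1.17, with 10 at least 2-fold higher. For TTTGAA or TTTAAA alone the medians were 1.31 over 32 genes with it, 22 of them at least 2-fold higher, and 1.29 over 8 without it, 7 of them at least 2-fold higher. Over 31 genes with CCAAT the median was 1.40, with 23 at least 2-fold higher. Over 9 genes without it the median was 1.14, with 6 at least 2-fold higher. Median and share were both higher with CCAAT, but with the pair or with TTTGAA or TTTAAA the share was lower. In the window from 100 bases before the start, the pair had 1.41 over 22 genes (17 at least 2-fold higher). The 18 genes without it there had 1.16 (12 at least 2-fold higher). The shares thus varied with motif and window, and no difference by motif is read from them. Spc25, with values equal on all arrays, carries 2 CCAAT boxes and TTTGAA, while Nusap1, with 1 of the larger differences, shows none of these letters in the stretch above.

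**Figure D1:**
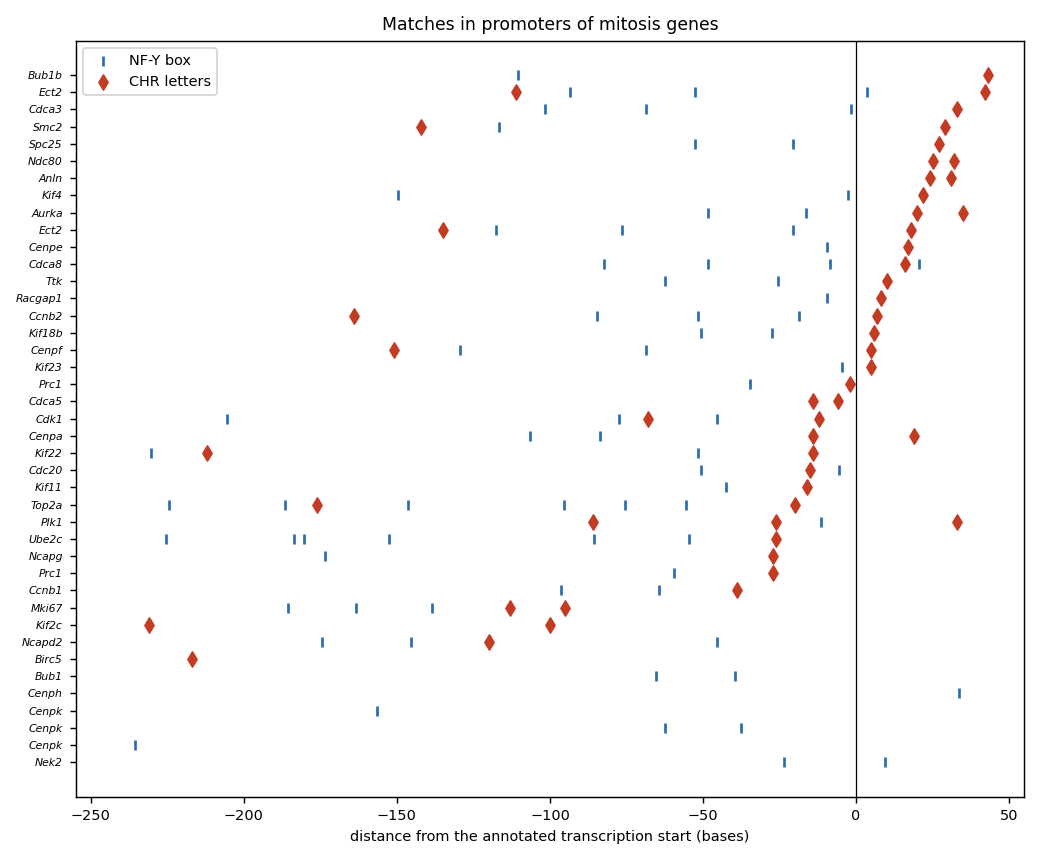
Matches of the NF-Y box (blue bars) and of the CHR letters (red diamonds) in the 41 promoter entries of mitosis genes with a match of either kind, by distance in bases from the annotated start; a gene with several entries has several lines, and 4 entries without a match are not drawn. The red matches gather within 50 bases of the start in 31 of 35 promoters that have one, and the blue ones lie mostly before them.

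The first comparison, NTS against control, asked how these genes differed in the serum-treated kidney on day 7. Of the 49 genes, 47 were higher on the NTS array, 0 were lower and 2 were equal. Of all genes measured, 32.8% were higher, 30.2% lower and 37.0% equal. At least 2-fold higher were 36 of the 49 (73.5%), while 1.78% of all genes measured were that much higher, and 0 of the 49 were at least 2-fold lower, against 3.37% of all genes. The median difference of the 49 was 1.39, or 2.63-fold, beside a median of 0 over all genes. Of the 355 genes at least 2-fold higher in the whole table, 36 were of this list, and 14 of its genes stood among the 100 largest positive differences. The control level was low: 8 of the 49 reached the array's median on the control array, 34 did in NTS and 11 in NTS/PGE2. The median is over all probe sets, and 57.3%, 56.9% and 56.8% of all genes reached it on these arrays, in the same order. On the control array 11 lay below the 25th percentile, where a value may be background and a difference may be understated.

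The second comparison set NTS/PGE2 against NTS, for the effect of PGE2 in serum-treated mice. Lower on the NTS/PGE2 array were 46 of the 49, with 3 equal and 0 higher. Of all genes, 29.3% were lower, 35.6% equal and 35.1% higher. At least 2-fold lower were 34 (69.4%), against 2.1% of all genes, and 0 were at least 2-fold higher, against 2.56%. The median difference was -1.28, a level 2.42-fold below that of the NTS array. This comparison and the first share the NTS array, so a value that is high there enters both. The third comparison, NTS/PGE2 against control, does not use the NTS array. In it 0 of the 49 genes were at least 2-fold higher and 0 at least 2-fold lower, where 0.0351% and 0.421% of all genes were. At shares this small, a count of 0 among 49 is not particular to this list. Most of the values compared were also dim. Of the 49 genes, 11 reached the median on the array where they were higher, and 14 lay below the 25th percentile on the NTS/PGE2 array. The median was 0.11, with 33 genes higher, 10 lower and 6 equal, beside 30.7% higher, 27.5% lower and 41.8% equal of all genes.

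**Figure D2:**
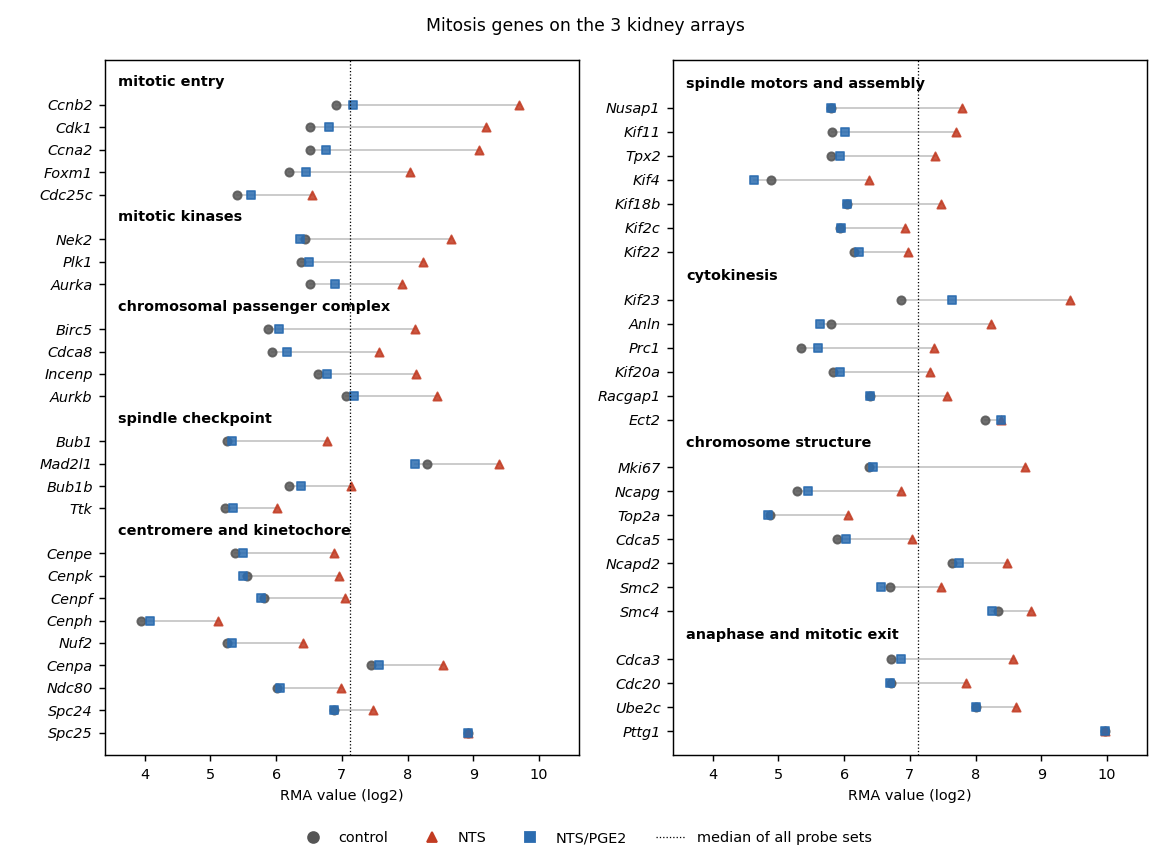
The log2 RMA value of each of the 49 mitosis genes on the control (grey circle), NTS (red triangle) and NTS/PGE2 (blue square) arrays, grouped by role, with the mean of the 3 array medians as a dotted line. The triangle stands to the right of the other symbols except for Spc25, Pttg1 and Ect2, and circle and square lie within 0.38 of each other for every gene but Kif23.

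The genes of mitotic entry had the largest median difference between NTS and control of any role, at 2.56 over 5 measured genes, which ran from 1.13 to 2.79. Ccnb2, which encodes cyclin B2, read 6.90 in control, 9.69 in NTS and 7.17 in NTS/PGE2. The kinase gene Cdk1 read 6.51, 9.19 and 6.81 in the same order. Cyclin A2 (Ccna2) read 6.52, 9.08 and 6.75. On the NTS array these 3 stood 6.90-fold, 6.43-fold and 5.91-fold above control, and on the NTS/PGE2 array each lay within 0.30 of its control value. Ccnb2 has a pseudogene, Ccnb2-ps, in the RefSeq table, so its probes may also read that copy. Foxm1, the transcription factor that drives many G2 and M phase genes, read 6.19, 8.04 and 6.46. Cdc25c, the phosphatase that activates CDK1, was dimmer, at 5.41, 6.54 and 5.62, and its NTS/PGE2 level was below the NTS level by less than 2-fold, at -0.92.

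Of the mitotic kinases, Nek2, which splits the centrosome pair, read 6.44 in control, 8.66 in NTS and 6.36 in NTS/PGE2. Plk1, which acts from mitotic entry to cytokinesis, read 6.37, 8.23 and 6.50. Aurka, the kinase of spindle poles, read 6.52, 7.91 and 6.89. The order of the arrays was the same for Plk1 and Aurka, with NTS/PGE2 between control and NTS, and Nek2 on the NTS/PGE2 array was close to its control level, at a difference of -0.08. Aurka kept 0.37 above control, the second largest such difference in the list.

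All 4 genes of the chromosomal passenger complex, which corrects faulty kinetochore attachments and then moves to the spindle midzone, were at least 2-fold above control in NTS. Birc5 (survivin) read 5.87 in control, 8.11 in NTS and 6.04 in NTS/PGE2. Cdca8 (borealin) read 5.94, 7.56 and 6.16. The scaffold gene Incenp read 6.63, 8.13 and 6.76. The kinase gene Aurkb read 7.06, 8.45 and 7.19, so that all 4 lay within 0.22 of control on the NTS/PGE2 array. The differences between NTS and control of the complex ran from 1.39 for Aurkb to 2.24 for Birc5.

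The median of the spindle checkpoint genes was 1.01, with 2 of 4 at least 2-fold above control in NTS. Bub1, a checkpoint kinase at the kinetochore, read 5.25 in control, 6.77 in NTS and 5.32 in NTS/PGE2. Mad2l1, whose product binds and inhibits the APC/C activator CDC20, read 8.29, 9.38 and 8.11. Bub1b (BUBR1), another part of that inhibitor, read 6.19, 7.13 and 6.37, a difference of 0.94 for NTS against control. Ttk (MPS1), the kinase that starts the checkpoint signal, read 5.23, 6.01 and 5.34. Bub1 and Ttk lay below the 25th percentile of the control array, and Mad2l1 alone of the 4 was at or above the median there.

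Of 9 centromere and kinetochore genes, 6 were at least 2-fold above control in NTS, and the median was 1.15. Cenpe, a kinesin that carries chromosomes to the spindle equator, read 5.38 in control, 6.87 in NTS and 5.49 in NTS/PGE2. Cenpk, of the constitutive centromere network, read 5.56, 6.96 and 5.49. Cenpf, a large kinetochore protein that appears in G2, read 5.82, 7.04 and 5.76. These 3 had control and NTS/PGE2 values within 0.11 of each other. Cenpa, the histone H3 variant that marks centromeres, read 7.44, 8.53 and 7.56. Cenph stayed below the 25th percentile on all arrays, at 3.95, 5.12 and 4.09, where a value may be background, and its difference was 1.17.

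The NDC80 complex, the part of the kinetochore that grips microtubules, did not have equal differences over its 4 subunits. Nuf2 differed by 1.15 between NTS and control and Ndc80 by 0.98. Spc24 read 6.87 in control, 7.47 in NTS and 6.88 in NTS/PGE2, a difference of 0.60. Spc25 read 8.91 on every array. The 4 proteins form 1 complex in equal numbers, but their probe sets differ in brightness and were each measured once on an array, and whether the transcripts or the probe sets set the unequal differences was not tested.

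Among spindle motors and assembly factors, 5 of 7 genes were at least 2-fold above control in NTS, with a median of 1.49. Nusap1, which bundles microtubules near chromosomes, read 5.79 in control, 7.80 in NTS and 5.79 in NTS/PGE2. Kif11 (Eg5), the motor that pushes spindle poles apart, read 5.81, 7.70 and 6.01. Tpx2, which nucleates microtubules and activates Aurora A, read 5.79, 7.38 and 5.94. The chromokinesin Kif4 differed by 1.49 and the plus-end motor Kif18b by 1.43. Kif2c, a microtubule depolymerase, and the chromokinesin Kif22 were below 2-fold, at 0.98 and 0.81. Kif4 and Kif22 each have a pseudogene in the RefSeq table, so their values may mix copies.

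In the cytokinesis group, 5 of 6 genes were at least 2-fold above control in NTS and Ect2 was the exception. Kif23, the motor subunit of centralspindlin, read 6.87 in control, 9.44 in NTS and 7.65 in NTS/PGE2. Anln (anillin), the scaffold of the contractile ring, read 5.79, 8.23 and 5.64. Prc1, which bundles the midzone microtubules, read 5.34, 7.37 and 5.60. Kif23 was the gene of the list that stayed farthest above control on the NTS/PGE2 array, at 0.78, while Anln was 0.16 below its control value. Racgap1, the partner of Kif23 in centralspindlin, read 6.40, 7.57 and 6.40, with a difference of 1.17 for NTS against control beside the 2.57 of Kif23. Ect2, the exchange factor that centralspindlin recruits to activate RhoA, read 8.14, 8.39 and 8.39. Kif20a, a midzone motor, differed by 1.47.

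Of the genes of chromosome structure, 4 of 7 were at least 2-fold above control in NTS. The proliferation marker Mki67, which coats mitotic chromosomes, read 6.38 in control, 8.75 in NTS and 6.45 in NTS/PGE2. Ncapg, a subunit of condensin I, read 5.28, 6.87 and 5.45. Top2a, which untangles sister DNA, read 4.87, 6.06 and 4.84 as the mean of 2 probe sets that differed in size. The brighter of them read 5.89, 7.78 and 6.06, and the other 3.84, 4.35 and 3.61, below the 25th percentile on every array. Cdca5 (sororin), which keeps cohesin on sister chromatids, differed by 1.14. The condensin subunits outside Ncapg had smaller differences, at 0.85 for Ncapd2, 0.77 for Smc2 and 0.50 for Smc4, and the Smc4 values of 8.34, 8.84 and 8.25 were among the few of the list at or above the control array's median.

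The genes of anaphase and mitotic exit had the lowest median of the roles, at 0.88, and 2 of 4 were at least 2-fold higher. Cdca3, a trigger of mitotic entry degraded by the APC/C, read 6.72 in control, 8.57 in NTS and 6.87 in NTS/PGE2. Cdc20, which activates the APC/C, read 6.71, 7.85 and 6.69. Ube2c, the ubiquitin-conjugating enzyme of the APC/C, read 8.00, 8.62 and 8.00, a difference of 0.62. Pttg1 (securin) read 9.97 on all arrays.

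Genes with a higher control reading had smaller differences. The 41 genes below the median of the control array had a median difference of 1.49 between NTS and control, with 34 of them at least 2-fold higher, and the 8 at or above it had 0.56, with 2 at least 2-fold higher (Mad2l1 and Cenpa). The 8 include Spc25, Pttg1, Ect2, Ube2c, Smc4 and Ncapd2. The control value enters both the split and the difference, so the 2 are not independent. Nearest to the 2-fold limit on the inside was Cenpa at 1.09, and on the outside Kif2c at 0.98, then Ndc80 at 0.98 and Bub1b at 0.94. Genes from Kif22 at 0.81 to Top2a at 1.20 lay within 0.20 of the limit. That is the SD of 1 probe set's difference in bright genes, so the count of 36 is not firm.

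**Figure D3:**
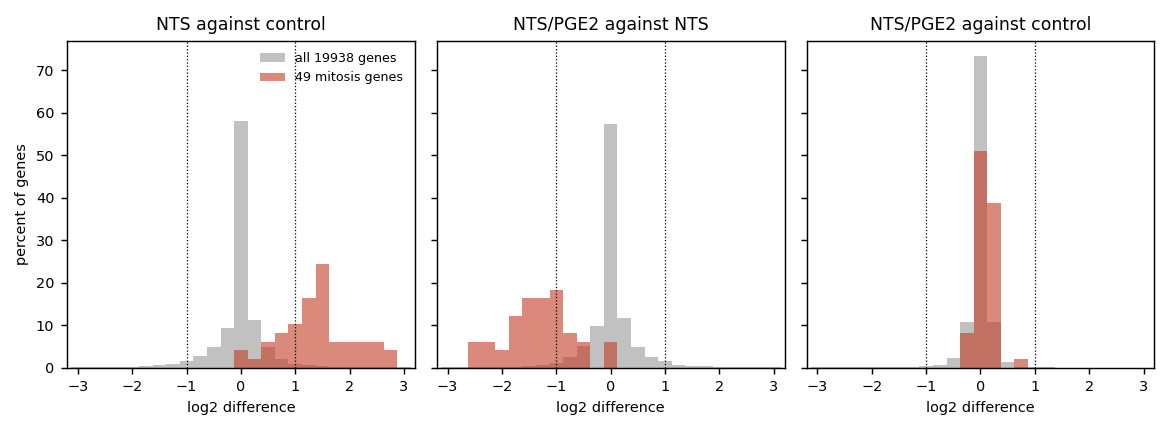
Shares in percent of the 49 mitosis genes (red) and of all 19938 genes (grey) in bins of the log2 difference, for the 3 comparisons; dotted lines mark 2-fold, and grey values beyond 3 on either side are drawn at 3. The red bars lie mostly above 1 for NTS against control (36 of 49 genes), mostly below -1 for NTS/PGE2 against NTS (34 of 49) and between the lines for NTS/PGE2 against control.

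Genes around the list showed how far the pattern went. For scale, 32.8% of all genes measured were higher on the NTS array than in control, and 1.78% at least 2-fold higher. Of 38 other measured mitosis genes, all were higher on the NTS array, 20 at least 2-fold, with a median of 1.01; the largest were Hmmr, a spindle protein, at 2.00, Ska3, of the complex that tracks microtubule ends, at 1.89, the CDK-binding phosphatase gene Cdkn3 at 1.67 and Sgo2a, a shugoshin that protects cohesin, at 1.55. For NTS/PGE2 against NTS 17 of them were at least 2-fold lower, and their median was -0.84. Of 26 other centromere and kinetochore genes, 7 were at least 2-fold above control in NTS, with a median of 0.44, led by Cenpu at 1.73, Oip5 at 1.56, Cenpt at 1.38 and the microtubule-binding scaffold Knl1 at 1.30. In the second comparison 6 of the 26 were at least 2-fold lower.

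Lists of machines that also act outside mitosis had medians near 0 for NTS against control. All 16 APC/C genes lay at or above the median on every array, 0 were 2-fold different in any comparison, and their median for NTS against control was 0.01, with Anapc13 at -0.56 and Anapc7 at 0.54 as the largest. Of 14 other condensin and cohesin genes, 2 were at least 2-fold above control in NTS, the cohesin acetyltransferase gene Esco2 at 1.52 and the condensin I gene Ncaph at 1.27. Next in size were the condensin II gene Ncapg2, higher by 0.85, and the cohesin regulator gene Pds5b, at -0.83. The median of the 14 was 0.02. Of 22 kinesins of interphase transport 0 were 2-fold different in any comparison, with a median of 0.04 and the largest, Kif12, at -0.68.

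Among genes upstream of mitosis, the list of E2F, DREAM and NF-Y regulators and that of G1 cyclins and kinases went both ways. Of 22 genes of the E2F, DREAM and NF-Y factors, 1 was at least 2-fold above control in NTS, the repressor gene E2f8 at 1.17, and the median was 0; Mybl2, which joins MuvB in activating these promoters, differed by 0.74. The NF-Y subunit genes Nfyc and Nfya were lower, at -0.78 and -0.67, and Nfyb was equal at 7.80 on all arrays. Among 8 G1 cyclins and kinases, cyclin D2 (Ccnd2) was at least 2-fold lower at -1.25 and Ccnd1 lower at -0.71, while the kinase gene Cdk6 was higher by 0.99. Of 12 measured cell cycle inhibitors, 8 were higher in NTS, 1 lower and 3 equal, beside 32.8%, 30.2% and 37.0% of all genes. Gadd45a was at least 2-fold higher at 1.15, followed by Btg2 at 0.80 and Gadd45b at 0.53. Replication genes had a median of 0.68 over 22, with the ribonucleotide reductase gene Rrm2 alone past 2-fold at 1.81. On the NTS array 19 of the 22 were higher than in control, 1 was lower and 2 were equal. For NTS/PGE2 against NTS 20 of the 22 were lower and 2 equal, with a median of -0.60 and 3 at least 2-fold lower. Of all genes, 29.3% were lower in that comparison, 35.6% equal and 2.1% at least 2-fold lower. These lists were set by role with earlier results of these arrays known.

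**Figure D4:**
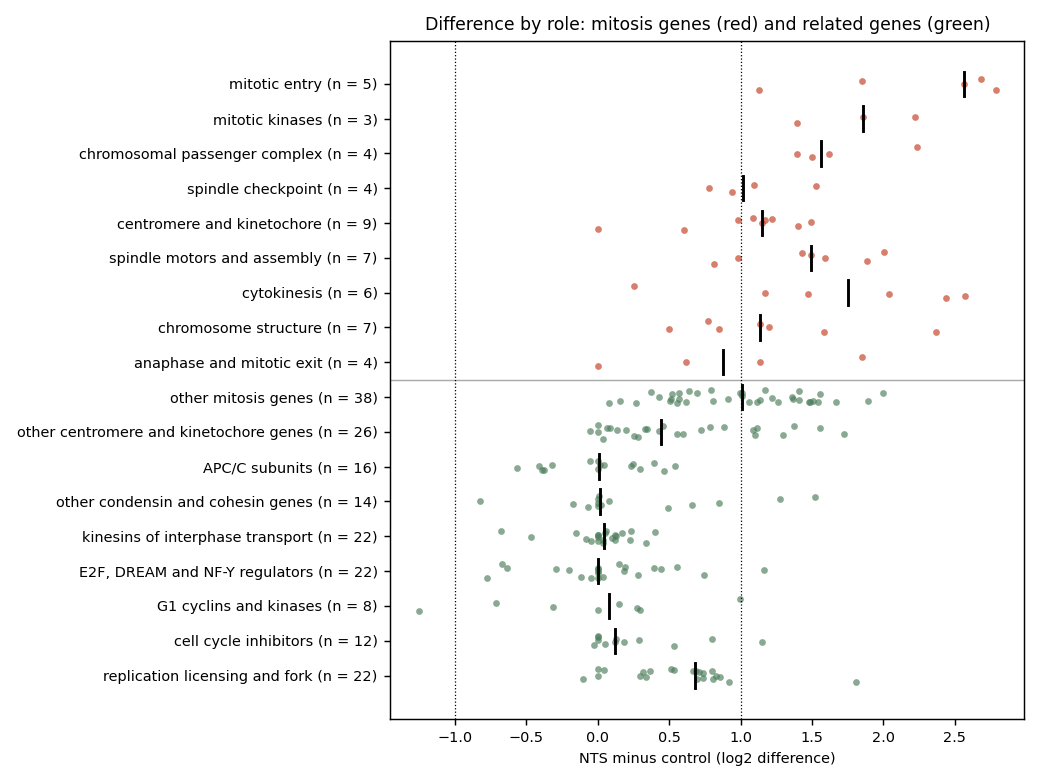
The log2 difference between NTS and control of each gene (points) and the median of each list (black bars), for the 9 roles of mitosis genes (red) and for 9 related lists (green); n is the number of measured genes and dotted lines mark 2-fold. Medians run from 0.88 to 2.56 over the red roles, and among the green lists 1.01 for other mitosis genes and 0.68 for replication genes are the largest.

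Markers of cell types differed between the same arrays. Of 9 measured markers of injured tubules, 7 were at least 2-fold above control in NTS and 0 lower; the list mean was 8.82 in control, 10.96 in NTS and 8.52 in NTS/PGE2, with the injury marker Havcr1 at 6.77, 12.63 and 7.50. Proximal tubule markers had means of 12.48, 10.85 and 12.49, and endothelium markers 10.23, 8.76 and 10.04. Their part in the result was not tested. Among the lists of blood cells, 0 of 8 markers of T and NK cells, 0 of 7 of B and plasma cells and 0 of 9 of neutrophils were at least 2-fold different between NTS and control, and 0 of the 8 and 0 of the 9 reached the median on any array. Of 10 macrophage markers, 3 were at least 2-fold above control in NTS (Cd68 at 2.23, Cd14 at 2.15 and Itgam at 1.10) and 2 at least 2-fold lower (Csf1r at -1.09 and Lyz2 at -1.19), with means of 8.19, 8.39 and 7.85. Markers of erythroid precursors had means of 8.07, 7.27 and 7.71.

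Fat markers stood apart on the control array, with a mean of 9.92 there, 6.58 in NTS and 6.56 in NTS/PGE2. Of the 8 markers, 7 were at least 2-fold lower in NTS than in control. For NTS/PGE2 against NTS, 1 was at least 2-fold higher and 1 at least 2-fold lower. Their part in the values of the mitosis genes was not tested.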

How the data were processed

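The deposited values are log2 intensities per probe set, which the authors produced in Affymetrix Expression Console by RMA, per the submitters' processing notes. Which version or annotation build was used is not given in the sources used here. The RMA method corrects background, equalises the arrays' distributions and summarises probes by median polish, which can give equal values on several arrays and understate small differences. Precision is limited by the number of arrays, 3. Of 35556 probe sets, GEO's platform annotation paired 21789 with 1 gene symbol and 1621 with several, and left 12146 without a name here. Gene identifiers of 21698 matched a GRCm38.p6 table, which altered 0 symbols. Probe sets were averaged per gene and compared as plain differences (Python 3.11.15, pandas 2.3.3), with all measured genes of a list counted at a log2 difference of at least 1. The design called for no test, and none was run; the counting was tested on simulated data. Values on all arrays are given for the 3 largest differences of each role and the smallest ones, up to 4 genes with the largest differences are named from each related list, and up to 3 in list order from each marker list. The full values of Foxm1, Cenph, Cenpa and Racgap1, and Nfyb, Itgam, Cd14 and Lyz2, were added outside that rule after their values were seen. The genes, lists and roles were chosen with earlier results of these data known. Promoters came from a RefSeq table of GRCm38.p6. Alternatives were other probe set, scaling, filter and fold rules.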

Additional observations from a re-analysis of the deposited data

How the results depend on the processing

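With a 3-fold limit in place of 2-fold, 16 of the 49 genes were higher for NTS against control and 14 lower for NTS/PGE2 against NTS. With a 1.5-fold limit 45 were higher and 46 lower, and 1, Kif23, was higher for NTS/PGE2 against control. The share of all genes was not counted at the 3-fold and 1.5-fold limits, so these counts have no background beside them. Centring on bright genes changed the count of all genes at least 2-fold higher for NTS/PGE2 against control from 7 to 13. Every other count over these genes or over all genes stayed within 1.5 times its value under the alternatives run. The median for NTS against control ran from 1.39 to 1.49 over the alternatives that give one, and that for NTS/PGE2 against NTS from -1.26 to -1.39. With only the 34 genes that reached the array median on the NTS array, 25 were at least 2-fold higher. Over all genes, 11778 reached the median on the array where they were higher, and 2.7% of these were at least 2-fold higher in NTS. Such a filter favours genes that are high on the NTS array. Top2a depended on its probe sets: its difference for NTS against control was 1.20 as the mean, 1.88 for the brightest and 0.87 with sets of several symbols, which gave 35 genes at least 2-fold higher in place of 36. No paired analysis was possible because each group has 1 array, and for the same reason no array could be left out. The dimness of 41 of the 49 genes on the control array limits what their differences can show.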

Other observations

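A pair of probe sets that carry the symbols of Top2a and Hibadh together were left out of the values in the text above, and entered only the alternative that adds sets of several symbols. One read 7.49 in control, 7.98 in NTS and 6.89 in NTS/PGE2, and the other 7.40, 8.01 and 6.90. Their differences between NTS/PGE2 and control, -0.60 and -0.50, lie below those of the brighter Top2a probe set, 0.16, and of the dimmer one, -0.23.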
